A study of Mus musculus with 47 samples.

Results

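White fat from tumour-bearing mice treated with 3P10, an antibody against GFRAL, was compared with white fat from mice without a tumour, to see how near its transcript levels lay to the tumour-free level. The comparison took the 10 white fat libraries whose labels gave these 2 treatments, 5 per group, out of 47 libraries in the series, and all genes that passed a filter on low counts. The mice were C57Bl6, and tissue was harvested 21 days after inoculation. The group called NTB bore no tumour, and the labels name no antibody or dose for it. The group called 3P10 bore tumours of HT1080, a human fibrosarcoma line, and received 3P10 at 3 mg/kg each week from Day 0. A further 5 white fat libraries, called IgG1, came from mice with the same tumour and a control IgG1 antibody on the same schedule. Their levels are set beside the comparison. In 3P10 against NTB the tumour and the antibody enter together and cannot be told apart. The labels give no fat depot, sex, age or immune status. They call the libraries separate samples without saying that each came from its own mouse, so the tests measure the spread between these samples.

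GFRAL is the receptor for the circulating stress factor GDF15. Neurons of the hindbrain carry it, RET is its signalling partner, and through it the factor curbs appetite and body weight. White fat stores triglyceride, releases fatty acids by lipolysis when food is short, and secretes leptin in step with its fat content. Loss of fat mass is a part of cancer cachexia, and the labels' groups pose the question of what is left of the tumour's imprint on fat when GFRAL is blocked.

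The 3P10 libraries held 18.6 to 29.2 M counts and the NTB libraries 22.4 to 34.4 M, where M stands for 1000000 (the IgG1 libraries held 25.1 to 80.7 M). A gene at 0 counts in 1 of the 10 libraries could lie at up to 0.0846 to 0.161 CPM, the level of 3 counts, which covers counting error only. CPM is the count per M of the library total after scaling. The tissue carried its label: the 18 adipocyte markers summed to 71500 to 75100 CPM in 3P10 and to 63600 to 81300 CPM in NTB, and each was tested. The 10 markers of testis and epididymis summed to at most 0.483 CPM in 3P10 and 0.129 CPM in NTB. Over the 10 libraries the T cell receptor genes Cd3d, Cd3e and Cd3g had 12, 2 and 11 reads and Cd8a 2, while other genes of the T and NK cell list had up to 1747 (Gzma, at most 12.2 CPM). Genes of the B cell list had from 0 reads (Ms4a1, Pax5) to 91 (Jchain, at most 0.603 CPM). A pair of IgG1 libraries, replicates 2 and 4, stood apart, with 6550 and 6760 CPM of thermogenic markers against 320 to 2060 in the other 3 and 389 to 1590 in 3P10, and with 209 and 943 CPM of keratinocyte and mammary markers against 5.24 to 17.6 in 3P10. IgG1 values are therefore given with and without these libraries.

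No gene of 14081 tested differed between 3P10 and NTB white fat at an adjusted p under 0.05 (0% called, edgeR quasi-likelihood test, Benjamini-Hochberg adjustment), and the smallest adjusted p was 0.235. At an unadjusted p under 0.05 stood 666 genes, 4.73% of those tested, of which 408 were higher in 3P10 (2.90%) and 258 lower (1.83%). Without NTB replicate 2 there were 440 such genes. DESeq2 on the same genes called 47 (0.334%), 41 higher and 6 lower. The IgG1 libraries set against the same NTB libraries, in a fit of all 3 groups, gave 1245 called genes of 14402 (8.64%), and 93 of 14620 (0.636%) without IgG1 replicates 2 and 4.

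The libraries also set how large a difference could have gone unseen. For each gene a 95% interval of the log2 fold change was taken from the same edgeR fit, and the gene was counted as bounded when the whole interval lay between -1 and 1, that is within 2-fold either way. Bounded genes numbered 11407, or 81.0% of those tested, and 8443 (60.0%) were bounded within 1.5-fold. An equivalence test against 2-fold, adjusted over all genes, passed 11872 genes (84.3%). The bound followed the level. Of 9231 genes with a mean of at least 10 CPM, 8863 (96%) were bounded, of 3770 at 1 to 10 CPM 2426 (64.4%), and of 1080 under 1 CPM 118 (10.9%). The median size of the log2 fold change was 0.111, its 90th percentile was 0.47, and the median half-width of the interval was 0.365. The interval lay wholly past 2-fold for 8 genes that were higher in 3P10 and 2 that were lower.

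**Figure D1:**
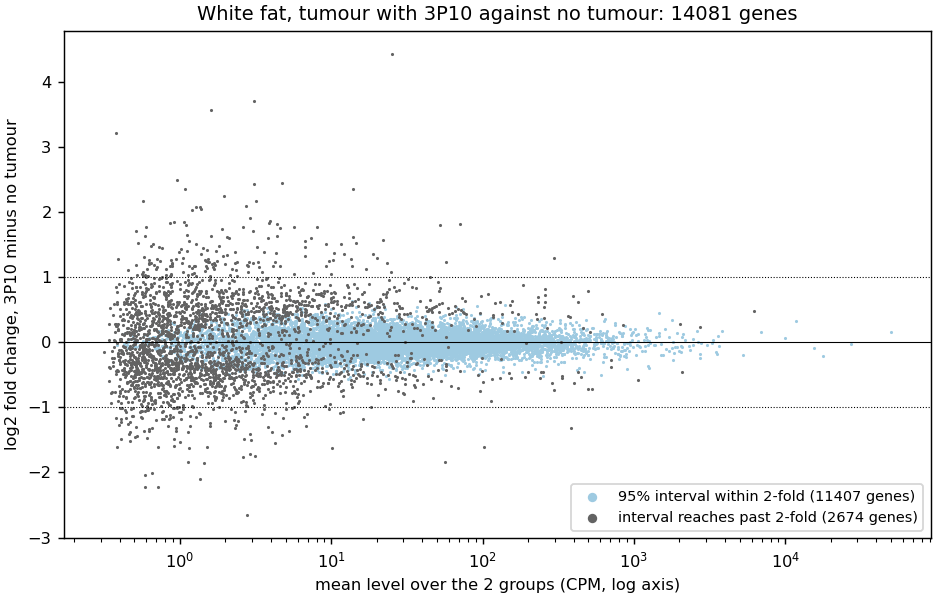
Each point is 1 of the 14081 genes tested; the x axis is its mean level over the 3P10 and NTB libraries in CPM on a log axis and the y axis its log2 fold change, 3P10 minus NTB, with dotted lines at 2-fold. The 11407 genes whose 95% interval lay within 2-fold form the band around 0, and most of the 2674 others lie under 10 CPM.

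As a whole, a 3P10 library lay about as far from an NTB library as NTB libraries lay from each other. The distance used was the root mean square difference in log2 CPM per gene. It had a median of 0.665 between 3P10 and NTB libraries (25 pairs, 0.504 to 0.914), 0.651 within NTB (10 pairs, 0.43 to 0.824) and 0.707 within 3P10 (10 pairs, 0.485 to 0.905). Between IgG1 and NTB libraries the median was 0.855, with medians of 0.964 and 1.07 for IgG1 replicates 2 and 4 and of 0.638, 0.751 and 0.833 for the other IgG1 libraries. In the 3P10 group, replicate 1 lay nearest to NTB (median 0.548) and replicate 2 farthest (0.848).

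The tumour-bearing state was first followed through 25 genes that earlier results of these data had marked in tumour mice with the control antibody. Of these, 22 were called in IgG1 against NTB (18 higher, 4 lower) and 8 without IgG1 replicates 2 and 4. In 3P10 against NTB 23 could be tested, 0 were called, 14 were bounded within 2-fold and 7 within 1.5-fold, smaller shares than the 81.0% and 60.0% over all genes. At an unadjusted p under 0.05 stood 4 of the 23, Akr1cl, Mt2 and Fbxo31 higher and Pla2g2e lower, against 4.73% of all genes. The median size of their log2 fold change was 0.22 in 3P10, larger than the 0.111 over all genes tested. In IgG1 it was 1.58, and 0.99 without replicates 2 and 4. Both comparisons share the 5 NTB libraries, and the genes were picked with their IgG1 values known, so those are a description.

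Irf4, a transcription factor that in adipocytes is induced by fasting and promotes lipolysis, stood at 8.46, 10.1, 8.63, 11.9 and 8.87 CPM in the NTB libraries and at 8.42, 10.2, 9.08, 12.8 and 11.1 CPM in the 3P10 libraries. The groups overlapped, with a log2 fold change of 0.11 (SE 0.15, 95% interval -0.23 to 0.44, edgeR adjusted p = 1). In IgG1 it was at 16.4, 90.7, 93.5, 179 and 19.6 CPM, above both groups in every library, a log2 difference from NTB of 3.06 (2.17 without replicates 2 and 4). Mycl, a MYC family transcription factor, was at 3.02, 6.47, 5.11, 9.17 and 3.66 CPM in NTB and 2.91, 11.5, 4.65, 14.1 and 5.99 CPM in 3P10. All 5 IgG1 libraries were higher than every library of the other groups, at 36.4, 77.4, 89.6, 67.6 and 38.4 CPM. Its log2 difference from NTB was 0.51 in 3P10 (SE 0.42, interval -0.42 to 1.43) and 3.49 in IgG1 (3.32 without replicates 2 and 4), so for Mycl a 2-fold excess in 3P10 was within the error. Ngfr, the low-affinity neurotrophin receptor, was at 6.97, 8.21, 5.92, 6.67 and 7.83 CPM in NTB and at 3.22, 8.8, 9.42, 3.06 and 8.51 CPM in 3P10. In 3P10, 3 libraries were above the NTB range and replicates 1 and 4 below it, while IgG1 was at 0.797, 0.646, 0.844, 1.47 and 0.682 CPM. The log2 difference of Ngfr from NTB was -0.1 in 3P10 (interval -0.79 to 0.58) and -2.97 in IgG1 (-3.19 without replicates 2 and 4).

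The lipid-burning genes of the set lay close to NTB in 3P10. Pnpla2, adipose triglyceride lipase, which starts triglyceride breakdown, was at 1850, 2070, 1660, 2150 and 2100 CPM in NTB and 1890, 1480, 1930, 1820 and 2240 CPM in 3P10, with a log2 difference of -0.07 (interval -0.38 to 0.24), against 0.58 in IgG1 (0.56 without replicates 2 and 4). The mitochondrial enzymes Eci1, Eci2 and Acads, which act in fatty acid oxidation, differed from NTB by -0.05, -0.05 and -0.06 in 3P10, each bounded within 1.5-fold. Their IgG1 differences were 1.11, 0.65 and 0.68, and 0.34, 0.43 and 0.3 without replicates 2 and 4. Acot2, a mitochondrial acyl-CoA thioesterase, was at 40.1, 38.6, 37, 26.2 and 37.4 CPM in NTB and 43.2, 46.1, 30.1, 43.9 and 47.8 CPM in 3P10 (log2 0.23, interval -0.08 to 0.55), and every IgG1 library was above both, at 85.4, 71.9, 65.5, 81.7 and 62.7 CPM.

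Some genes of the set were less tightly held. Pla2g2e, a secreted phospholipase, was at 4.62, 7.88, 11.6, 4.65 and 2.94 CPM in NTB, 0.831, 3, 1.32, 3.38 and 2.34 CPM in 3P10 and 1.16, 0.525, 0.281, 0.277 and 0.757 CPM in IgG1. Its log2 difference was -1.55 in 3P10 (SE 0.43, edgeR adjusted p = 0.675) and -3.44 in IgG1 (-3.13 without replicates 2 and 4), the same sign in both. Akr1cl, a gene of the aldo-keto reductase family, stood at 0.853, 0.525, 0.987, 3.75 and 4.43 CPM in NTB and 8.35, 8.24, 10.8, 1.4 and 6.44 CPM in 3P10, where 4 of 5 libraries were above the NTB range. That is a log2 difference of 1.76 (SE 0.61, adjusted p = 0.902), against -3.97 in IgG1 (-3.13 without replicates 2 and 4), where the highest library was at 0.478 CPM. Fkbp5, a co-chaperone induced by glucocorticoids, differed from NTB by 0.54 in 3P10 (interval -0.27 to 1.34) and by 2.06 in IgG1 (1.61 without replicates 2 and 4), and NTB itself ranged from 14.6 to 59.9 CPM. Mfsd2a and Acot3 did not pass the count filter in this comparison, and the highest 3P10 library of each, replicate 4, was at 0.859 and 1.29 CPM.

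**Figure D2:**
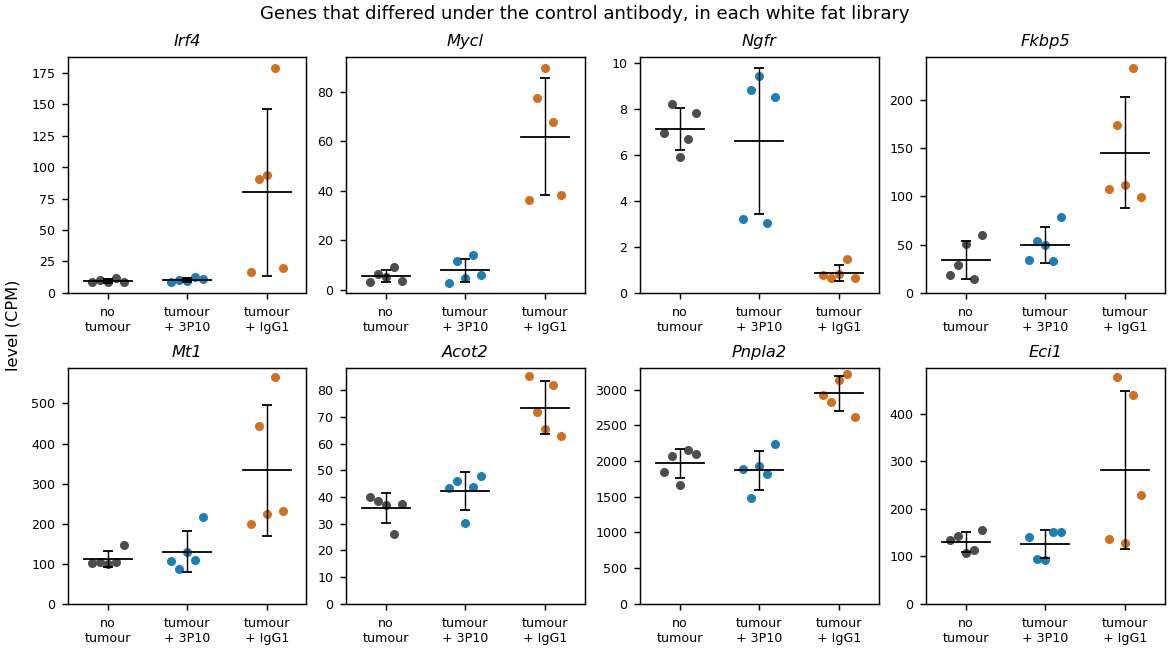
Levels in CPM (y axes, each from 0 or just under it) of 8 genes picked for their IgG1 difference, 1 point per library, with the group mean and SD (n = 5) for no tumour, tumour with 3P10 and tumour with IgG1. For Irf4, Mycl and Acot2 every IgG1 point lies above every point of the other groups; Ngfr splits into 2 sets of 3P10 libraries, replicates 1 and 4 being the lower.

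The adipocyte markers were bounded about as often as other well expressed genes. All 18 lay within 2-fold of NTB in 3P10, against 96% of genes of at least 10 CPM. Within 1.5-fold lay 10 of the 18, against 60.0% over all genes. Their median log2 fold change was -0.01, and 1 was at an unadjusted p under 0.05 (4.73% of all genes tested). Adipoq, which encodes adiponectin, was at 2510, 2670, 2550, 3910 and 2830 CPM in NTB and 2560, 1990, 3070, 2550 and 2630 CPM in 3P10. The log2 difference was -0.18 (SE 0.17, interval -0.55 to 0.19), smaller than the spread within NTB, where replicate 4 was highest. Lep, the leptin gene, was at 1450, 1520, 1460, 1200 and 1820 CPM in NTB and 1800, 1710, 2680, 580 and 1780 CPM in 3P10, where replicate 4 was low and replicate 3 high. Its log2 difference was 0.2 (interval -0.46 to 0.86), against -1.28 in IgG1 and -0.65 in IgG1 without replicates 2 and 4. Adrb3, the beta-3 adrenergic receptor through which noradrenaline starts lipolysis in mouse fat, had the smallest p of these markers. It was at 995, 967, 934, 1400 and 834 CPM in NTB and 745, 703, 687, 931 and 788 CPM in 3P10, a log2 difference of -0.41 (SE 0.15, adjusted p = 0.99).

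Most lists of lipid metabolism were bounded in nearly all members. In lipolysis 16 of 17 genes were bounded within 2-fold (median -0.05), in triglyceride synthesis and glyceroneogenesis 14 of 14 (median -0.03), in lipid uptake and binding 11 of 13 (median 0.00), in fatty acid beta-oxidation 22 of 23 (median -0.05) and in cholesterol synthesis 21 of 22 (median 0.00). These shares stand beside 81.0% over all genes and 96% over genes of at least 10 CPM. Lipe, hormone-sensitive lipase, differed from NTB by 0.03 (interval -0.25 to 0.32), and Pparg, the master transcription factor of adipocytes, by -0.13 (interval -0.56 to 0.31). Fatty acid synthesis was the exception, with 13 of 18 bounded and a median of 0.14. Fasn, fatty acid synthase, was at 6760, 9360, 9780, 8690 and 13800 CPM in NTB and ranged from 3450 to 15200 CPM in 3P10, at 14100, 6830, 3450, 15200 and 10900 CPM, which left an interval of -0.71 to 0.83 around a log2 difference of 0.06. Among genes at an unadjusted p under 0.05, Acaa1b, a peroxisomal thiolase, was lower, with a log2 difference of -0.43 (adjusted p = 0.699).

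Housekeeping and mitochondrial lists were bounded within 2-fold in nearly all members, about as often as other well expressed genes. Over all genes 81.0% were bounded within 2-fold and 60.0% within 1.5-fold. Of genes of at least 10 CPM, 96% were bounded within 2-fold, and their share within 1.5-fold was not taken. In oxidative phosphorylation 48 of 49 genes were bounded within 2-fold and 35 within 1.5-fold, with a median of -0.09, against 0.73 in IgG1 and 0.11 in IgG1 without replicates 2 and 4. By sign 42 of these genes were lower in 3P10 and 7 higher, against 7223 lower and 6858 higher over all genes tested. The proteasome was bounded within 1.5-fold in 31 of 31 genes (median 0.04), cytosolic ribosomal proteins in 31 of 38 (median 0.05), autophagy and lysosome genes in 22 of 22 (median -0.02) and endoplasmic reticulum folding genes in 18 of 20 (median 0.02). Thermogenic genes were not bounded as a group: 5 of 14 lay within 2-fold. Ucp1, the uncoupling protein of brown and beige fat, was at 628, 327, 93, 181 and 425 CPM in NTB and 573, 120, 84.5, 622 and 263 CPM in 3P10. The group means were nearly equal, at 331 and 332 CPM, but the libraries within each group spread so widely that the interval of the log2 difference of 0.01 ran from -1.27 to 1.29. In IgG1 Ucp1 reached 3300 and 3150 CPM in replicates 2 and 4 and 37.1 to 712 CPM in the others.

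Lists of genes that answer to fasting, glucocorticoids and the clock had fewer members bounded in 3P10 than over all genes (81.0%). The fasting-responsive PPAR list leaned higher, with a median of 0.23, 13 members higher in 3P10, 2 lower and 9 of 15 bounded. At an unadjusted p under 0.05 stood 1 of them. Over all genes tested 6858 were higher and 7223 lower. The glucocorticoid list had a median of 0.10, with 14 higher, 8 lower and 15 of 22 bounded. The clock list had a median of 0.03, with 11 higher, 9 lower and 11 of 20 bounded. The IgG1 medians of these lists were 0.79, 1.08 and 0.83, and 0.45, 0.74 and 0.87 without replicates 2 and 4. Klf15 and Per1, which respond to glucocorticoids, differed from NTB by -0.04 (interval -0.36 to 0.28) and -0.27 (interval -0.77 to 0.23). Mt1, a metallothionein, differed by 0.22 (interval -0.25 to 0.7). Its neighbour Mt2 was at 26.6, 22.4, 32.2, 33.1 and 74.5 CPM in NTB and 55.7, 55.3, 82.3, 41.6 and 101 CPM in 3P10, a log2 difference of 0.83 (SE 0.33, adjusted p = 1), with NTB replicate 5 inside the 3P10 range. Txnip, a glucose-responsive inhibitor of thioredoxin, was at 953, 1190, 1390, 1030 and 1600 CPM in NTB and 2040, 1740, 1690, 1430 and 1480 CPM in 3P10 (0.44, interval 0.08 to 0.81, adjusted p = 0.99).

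**Figure D3:**
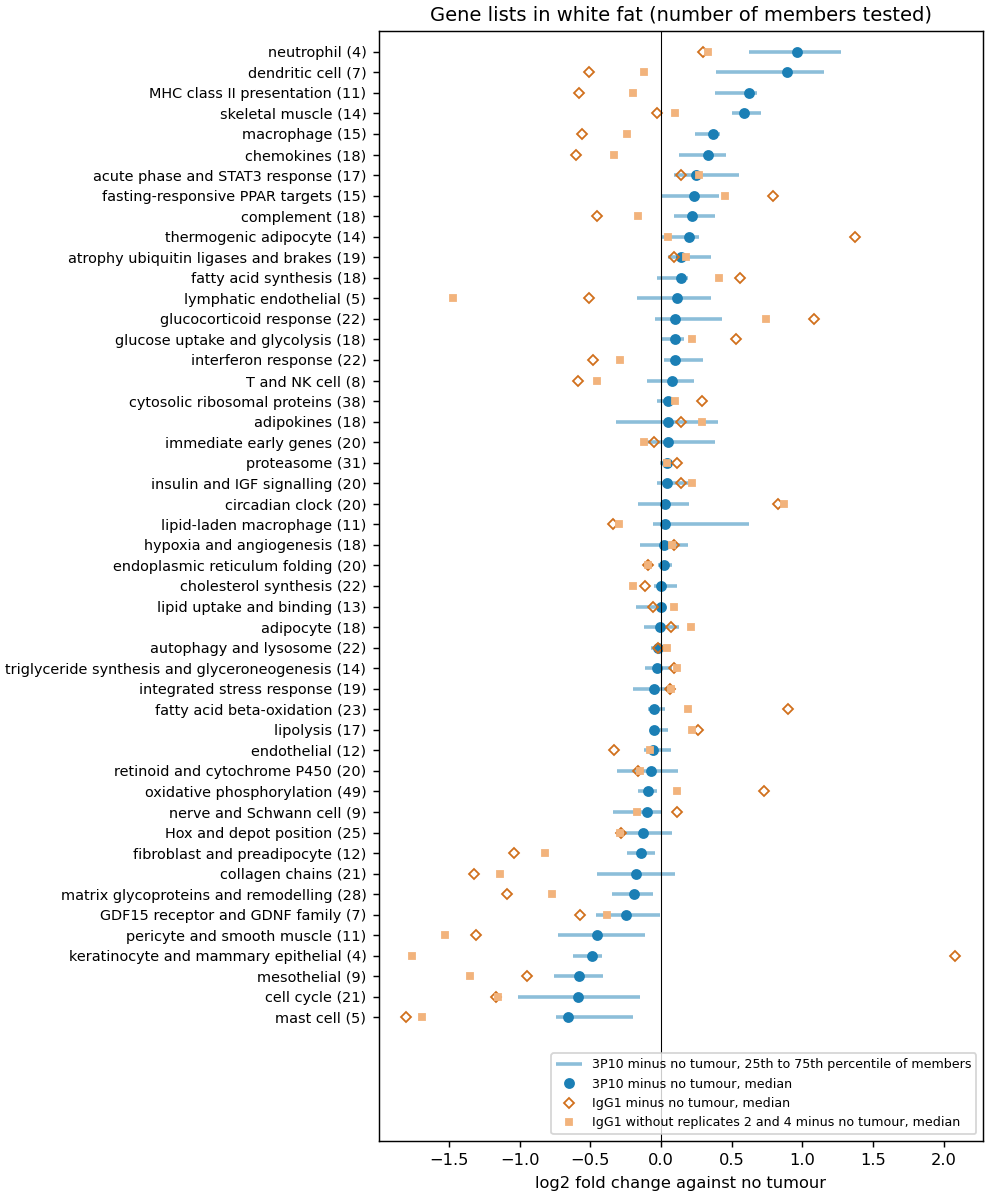
Gene lists with 4 or more members tested, ordered by the median log2 fold change of their members in 3P10 minus NTB (filled circles, with bars from the 25th to the 75th percentile); diamonds and small squares give the median in IgG1 minus NTB, with all 5 IgG1 libraries and without replicates 2 and 4. Most metabolic lists sit at 0 in 3P10, with the T and NK cell and lipid-laden macrophage lists near it. Neutrophil, dendritic cell, macrophage, MHC class II and skeletal muscle lists sit to the right and cell cycle, mesothelial and mast cell lists to the left. All comparisons share the NTB libraries.

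Genes of antigen presentation and of some leukocyte types stood mostly higher in 3P10, without passing the adjusted threshold in edgeR. MHC class II molecules are made by dendritic cells, B cells and macrophages and present peptides to helper T cells, and their genes are switched on together by the coactivator CIITA. Of 11 MHC class II genes tested 0 were called, 8 were at an unadjusted p under 0.05, all higher in 3P10 (2.90% of all genes tested), and 4 were bounded within 2-fold, with a median log2 fold change of 0.62. CIITA acts through the X and Y boxes of these promoters. The promoters of H2-Eb1 and H2-Aa, a beta and an alpha chain, are shown for that reason, from 250 bases before to 50 after the start of the RefSeq gene (GRCm38.p6), with matches to an 11-base X box core, in which 2 bases may be any, and to the Y box ATTGG, both searched on either strand, in capitals.

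H2-Eb1 (chr17:34305617-34305916, plus strand): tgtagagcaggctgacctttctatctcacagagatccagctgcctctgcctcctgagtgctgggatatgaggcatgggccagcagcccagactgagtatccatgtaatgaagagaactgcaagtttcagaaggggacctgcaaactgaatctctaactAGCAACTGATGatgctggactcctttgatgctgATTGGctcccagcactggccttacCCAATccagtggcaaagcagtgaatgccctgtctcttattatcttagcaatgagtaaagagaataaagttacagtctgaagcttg
H2-Aa (chr17:34287774-34288073, minus strand): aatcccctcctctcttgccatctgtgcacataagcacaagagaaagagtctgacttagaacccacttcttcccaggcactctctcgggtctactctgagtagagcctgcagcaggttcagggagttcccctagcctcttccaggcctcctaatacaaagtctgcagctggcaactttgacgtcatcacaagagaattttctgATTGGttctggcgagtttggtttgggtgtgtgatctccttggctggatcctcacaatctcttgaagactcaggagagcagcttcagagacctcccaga

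The H2-Eb1 window held the X box core once and the Y box letters at 2 places, the nearest 22 bases after the core, and the H2-Aa window held the Y box letters once. The core was in 0.298% of all 32851 RefSeq promoter windows, the Y box letters in 37.4% and both in 0.107%. Of 9 list genes with a window to print, 2 held both, H2-Eb1 and H2-DMb1. The letters of the core were settled after the windows of these 2 genes had been read, so both matches are a description. No match in H2-Aa says only that these letters are not in that window.

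H2-Eb1 was at 71, 77.6, 73.1, 52.3 and 97.9 CPM in NTB and 108, 126, 168, 115 and 89.3 CPM in 3P10, where 4 of 5 libraries were above every NTB library. The log2 difference was 0.71 (SE 0.18, interval 0.31 to 1.11, edgeR adjusted p = 0.591). H2-Aa was at 134, 134, 110, 104 and 134 CPM in NTB and 163, 237, 271, 163 and 121 CPM in 3P10, with replicate 5 inside the NTB range (0.63, SE 0.2, adjusted p = 0.779). H2-Ab1, Cd74, the invariant chain that occupies the groove before peptide is loaded, and Ciita differed by 0.62, 0.81 and 0.88. The summed list lay between 605 and 1310 CPM in 3P10 libraries, between 460 and 687 CPM in NTB libraries and between 151 and 670 CPM in IgG1 libraries, with 3P10 replicates 3 and 2 highest and replicate 5 inside the NTB range. Leaving out 1 library moved the count of 8 to 4 without 3P10 replicate 3 or NTB replicate 2 and to 5 without 3P10 replicate 2, and the fit of all 3 groups gave 2. More cells of a type and more RNA per cell cannot be told apart in such bulk libraries.

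Some markers of the cells that carry MHC class II stood higher with it. Of 7 dendritic cell genes tested 4 were at an unadjusted p under 0.05, all higher in 3P10 (2.90% of all genes tested). They were Flt3, the receptor for the dendritic growth factor (1.48), Cd209a (1.16), Clec9a (1.13) and Xcr1 (0.89), all log2 differences with adjusted p of 0.793 or more. Flt3 had 48 reads over the NTB and 121 over the 3P10 libraries, and it passed the count filter through the 3P10 libraries. With the filter of at least 1 CPM in 5 libraries, 2 of 5 dendritic genes tested were at that p. The most abundant genes of the list, Zbtb46 at -0.04 (interval -0.55 to 0.47) and Itgae at -0.11 (interval -0.54 to 0.31), were bounded within 2-fold. The 4 were low, with Xcr1 at 0.426, 0.445, 0.564, 0.517 and 0.271 CPM in NTB and 0.589, 0.88, 1.09, 1.02 and 0.62 CPM in 3P10, groups that just did not overlap. Groups without overlap and higher in 3P10 occurred for 69 genes, 0.490% of those tested, and lower ones for 48 (0.341%). The summed dendritic list ran from 22.3 to 33.6 CPM in 3P10 and from 19.5 to 23.5 CPM in NTB. Macrophage genes had a median of 0.37, with 13 of 15 higher in 3P10 (6858 of 14081 over all genes tested). Of them 2 were at an unadjusted p under 0.05 and 10 were bounded within 2-fold. The count of 2 was 6 without 3P10 replicate 1, 7 without 3P10 replicate 5, 4 without NTB replicate 1 and 1 without 3P10 replicate 2 or 3 or NTB replicate 2, 4 or 5. They summed to 408 to 934 CPM in 3P10 and 389 to 653 CPM in NTB, 3P10 replicates 2 and 3 again being highest. Itgax, an integrin of macrophages and dendritic cells, was at 1.46, 1.17, 2, 2.11 and 1.85 CPM in NTB and 3.39, 4.36, 7.95, 2.42 and 2.03 CPM in 3P10 (1.23, adjusted p = 0.702). Genes of lipid-laden macrophages were split, with a median of 0.03, 3 of 11 at an unadjusted p under 0.05 and higher (1 of 11 without 3P10 replicate 1), and Gpnmb leading.

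Single genes of leukocytes had some of the smallest p of the comparison. Coro1a, an actin regulator of blood cells, was at 23.7, 23.4, 23.5, 16.6 and 18.6 CPM in NTB and 41.7, 42.4, 44.4, 41 and 29.2 CPM in 3P10. The groups did not overlap, and the log2 difference of 0.91 (SE 0.14) had an edgeR adjusted p of 0.235 and a DESeq2 adjusted p of 2.63e-05. Itgal, the alpha chain of the leukocyte integrin LFA-1, was at 6.61, 5.66, 4.74, 7.32 and 4.12 CPM in NTB and 17.4, 9.92, 11, 19.6 and 9.58 CPM in 3P10, again without overlap (1.24, SE 0.24, edgeR adjusted p = 0.409, DESeq2 adjusted p = 0.00145). Ccr2, the receptor that draws monocytes into tissue, was at 15.4, 17.7, 19.6, 23.9 and 16.1 CPM in NTB, 35, 47.2, 30.9, 28.2 and 25 CPM in 3P10 and 13.2, 8.31, 8.44, 4.16 and 11.7 CPM in IgG1, 3 groups in which 3P10 was highest and IgG1 lowest in every library. Its log2 difference from NTB was 0.84 in 3P10 (SE 0.18, edgeR adjusted p = 0.427, DESeq2 adjusted p = 0.011) and -1.02 in IgG1 (-0.74 without replicates 2 and 4). Ptprc, which encodes the pan-leukocyte antigen CD45, differed by 0.6 (SE 0.15, adjusted p = 0.542). Csf2rb2 had the smallest p of all genes, at 10.2, 7.44, 7.95, 6.03 and 7.42 CPM in NTB and 21.1, 18.4, 26.6, 14.5 and 14.3 CPM in 3P10 (1.28, SE 0.2, edgeR adjusted p = 0.235), but it is a near copy of Csf2rb (0.78), and the counting could split reads between them.

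The other immune lists differed among themselves. Of 4 neutrophil genes tested, 3 were at an unadjusted p under 0.05 and higher (2.90% of all genes tested), S100a8 (1.23), S100a9 (1.38) and Csf3r (0.7). The list was at 9.68 to 20.8 CPM in 3P10 and 6.26 to 8.99 CPM in NTB. The 8 T and NK cell genes tested had a median of 0.08 and 0 at that p. The 5 mast cell genes tested had a median of -0.66, 0 at that p and 1 bounded within 2-fold. Interferon response genes were 20 of 22 bounded, with a median of 0.10, Mx1 and Cxcl10 being the exceptions. At an unadjusted p under 0.05 stood 3, all higher, Mx1, Irf7 (0.39) and Ifi44 (0.45), and 1 higher without NTB replicate 2 or 4 or in the fit of all 3 groups. Mx1, an antiviral GTPase, was at 0.64, 0.849, 1.41, 0.775 and 1.09 CPM in NTB and 2.67, 3.4, 1.32, 2.47 and 3.41 CPM in 3P10 (1.47, SE 0.32, edgeR adjusted p = 0.427, DESeq2 adjusted p = 0.0117). The acute phase and STAT3 list had 7 of 17 genes at an unadjusted p under 0.05 and higher and 1 lower, with a median of 0.25. Over all genes tested these shares were 2.90% and 1.83%. Socs3, the feedback inhibitor of STAT3 signalling, was at 6.33, 6.55, 5.98, 5.34 and 4.03 CPM in NTB and 11.2, 9.64, 6.67, 10.1 and 5.89 CPM in 3P10 (0.62, SE 0.21, adjusted p = 0.854). The count of 7 was 1 without 3P10 replicate 3 or NTB replicate 2 and 3 without 3P10 replicate 2, NTB replicate 1 or NTB replicate 3, and 4 without NTB replicate 5. It was 3 in the fit of all 3 groups, 4 with the replicate block and 2 with the library number block.

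The opposite lean was found in the cell cycle and in part of the collagens. By sum the cell cycle list ran from 147 to 321 CPM in 3P10, highest in replicate 3, and from 182 to 282 CPM in NTB. Of 21 cell cycle genes tested, 0 were called, 8 were at an unadjusted p under 0.05, all lower in 3P10 (1.83% of all genes tested), and 8 were bounded within 2-fold, with a median log2 fold change of -0.59 against -1.17 in IgG1 and -1.15 in IgG1 without replicates 2 and 4. Mitotic genes led: Ccnb2 (-1.85) and Ccnb1 (-1.36), the B-type cyclins, Mki67 (-1.28), the Ki-67 antigen, and Top2a (-1.15), topoisomerase II alpha. The replication genes lay near 0, with Mcm2 at -0.01, Mcm3 at 0.00 and Pcna at 0.04. Top2a was at 7.07, 17.7, 9.82, 5.21 and 5.43 CPM in NTB and 2.56, 4.68, 5.66, 4.35 and 3.2 CPM in 3P10, with NTB replicate 2 far above the rest. Without that library its log2 difference was -0.75 in place of -1.15, and the count of 8 was 5, as it was without 3P10 replicate 4, 3P10 replicate 5 or NTB replicate 3. Ccnb1 was at 1.14, 2.3, 1.18, 1.08 and 1.09 CPM in NTB and 0.623, 0.16, 0.814, 0.537 and 0.482 CPM in 3P10, without overlap (SE 0.41, adjusted p = 0.707). Prc1, a protein of the mitotic spindle midzone, was at 3.23, 10.8, 5.08, 2.71 and 2.53 CPM in NTB and 1.21, 1.28, 2.52, 1.23 and 0.964 CPM in 3P10 (-1.75, SE 0.43, edgeR adjusted p = 0.557, DESeq2 adjusted p = 0.0252).

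By their log2 fold change 13 collagen genes were lower in 3P10 and 8 higher, against 7223 lower and 6858 higher over all genes tested. The summed list ran from 4250 to 9300 CPM in 3P10, highest in replicate 3, and from 6240 to 8060 CPM in NTB. Of 21 collagen genes 4 were at an unadjusted p under 0.05, all lower in 3P10 (1.83% of all genes tested), and 11 were bounded within 2-fold. The median was -0.18 against -1.32 in IgG1 (-1.14 without replicates 2 and 4). The 4 were chains of fibrillar collagens and collagen VI. Col1a2 was at 731, 710, 696, 710 and 429 CPM in NTB, 369, 432, 581, 378 and 233 CPM in 3P10 and 272, 72.4, 238, 62.1 and 93.6 CPM in IgG1. NTB replicate 5 and 3P10 replicates 2 and 3 overlapped, and the log2 difference was -0.72 in 3P10 (SE 0.22, interval -1.2 to -0.23, adjusted p = 0.779) and -2.15 in IgG1 (-1.7 without replicates 2 and 4). Col3a1, Col1a1 and Col6a3 differed by -0.58, -0.55 and -0.45 in 3P10, and by -2, -2.35 and -1.91 in IgG1, or -1.53, -1.78 and -1.42 without its replicates 2 and 4. The basement membrane chains Col4a1 and Col4a2 were at 0.09 and 0.10. The count of 4 was 2 without 3P10 replicate 4 or 5 or NTB replicate 1 or 2 and 8 without 3P10 replicate 3. It was 0 in the fit of all 3 groups and 6 with either block. Other matrix genes had a median of -0.19, with 22 of 28 bounded and 0 at an unadjusted p under 0.05, and the fibroblast and preadipocyte markers a median of -0.14 with 11 of 12 bounded.

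**Figure D4:**
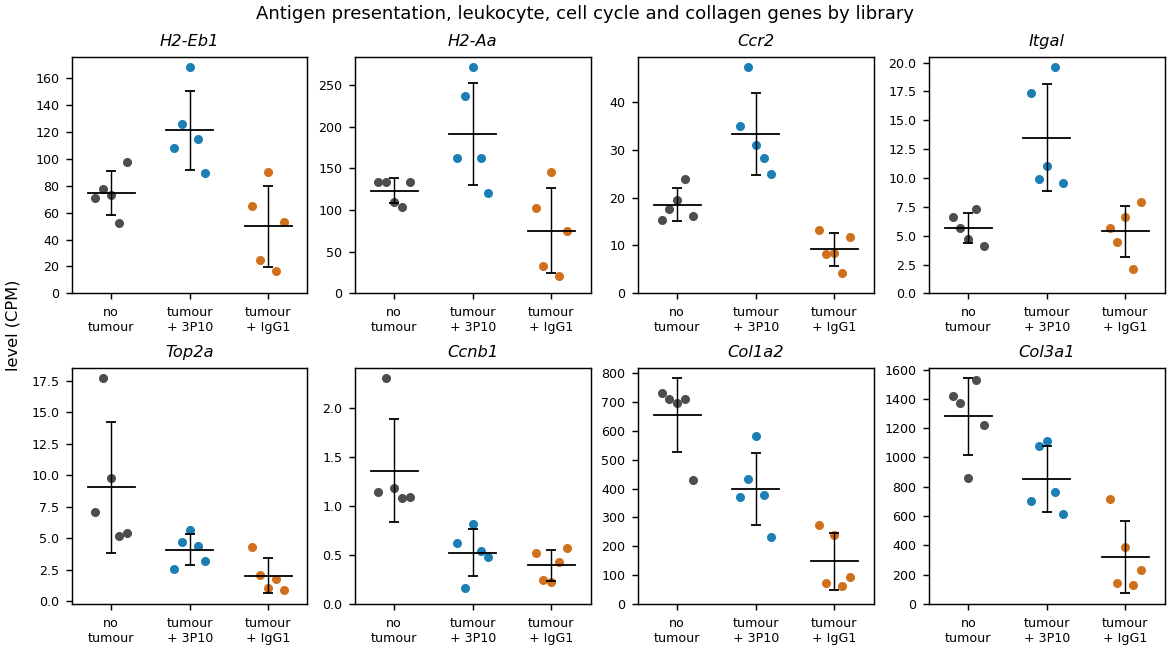
Levels in CPM (y axes) of 8 genes, 1 point per library, with the group mean and SD (n = 5). H2-Eb1, H2-Aa, Ccr2 and Itgal are higher in 3P10 than in the other groups by their means, and Top2a, Ccnb1, Col1a2 and Col3a1 lie between the no-tumour and IgG1 means. None of the 8 differed between 3P10 and no tumour at an edgeR adjusted p under 0.05, while DESeq2 called Itgal (DESeq2 adjusted p = 0.00145) and Ccr2 (0.011). The genes were chosen after their values were seen, or as the member of a list with the smallest p.

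Genes of skeletal muscle fibres also stood higher in some 3P10 libraries. Of 14 muscle genes 9 were at an unadjusted p under 0.05, all higher in 3P10 (2.90% of all genes tested), with a median of 0.59. The count of 9 was 4 without 3P10 replicate 2 or 3. In NTB white fat the 14 genes lay in a narrow band, at 0.425 to 1.13% of their mean level in the 5 NTB gastrocnemius libraries of the series, a low share for each gene. In 3P10 replicate 1 the band was 0.43 to 0.731%. In 3P10 replicates 2, 3, 4 and 5 it ran up to 3.13, 8.01, 3.07 and 2.35%, and the genes no longer kept 1 ratio. Myh4, the myosin of the fastest fibres, was at 545, 585, 799, 684 and 505 CPM in NTB and 530, 1210, 577, 556 and 631 CPM in 3P10, and apart from replicate 2 it stayed in the NTB range (0.17, interval -0.34 to 0.68). Myh2, a myosin of oxidative fast fibres, was at 18.2, 19.6, 30.4, 26.1 and 22.4 CPM in NTB and 19.1, 61.4, 170, 89 and 67.8 CPM in 3P10, with 4 of 5 libraries above every NTB library (1.8, SE 0.41, edgeR adjusted p = 0.461). Mb, the oxygen-binding protein myoglobin, was at 10.1, 10.7, 11.1, 10.8 and 12.6 CPM in NTB and 11.2, 42.3, 59.3, 25.8 and 26.1 CPM in 3P10 (1.58, SE 0.33, edgeR adjusted p = 0.427, DESeq2 adjusted p = 0.00242). The rise of Mb was shared by IgG1, at 9.29, 52, 48.7, 18.6 and 28.4 CPM (1.5, and 1.39 without replicates 2 and 4). Myh1 and Myh2 differed from NTB by 1.18 and 0.65 in IgG1 (1 and 0.65 without replicates 2 and 4). The median of the 14 genes in IgG1 was -0.03 (0.1 without replicates 2 and 4). Csrp3, a muscle LIM protein outside the list, reached 23.4% of its gastrocnemius level in 3P10 replicate 3, and 19.2% in IgG1 replicate 3.

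**Figure D5:**
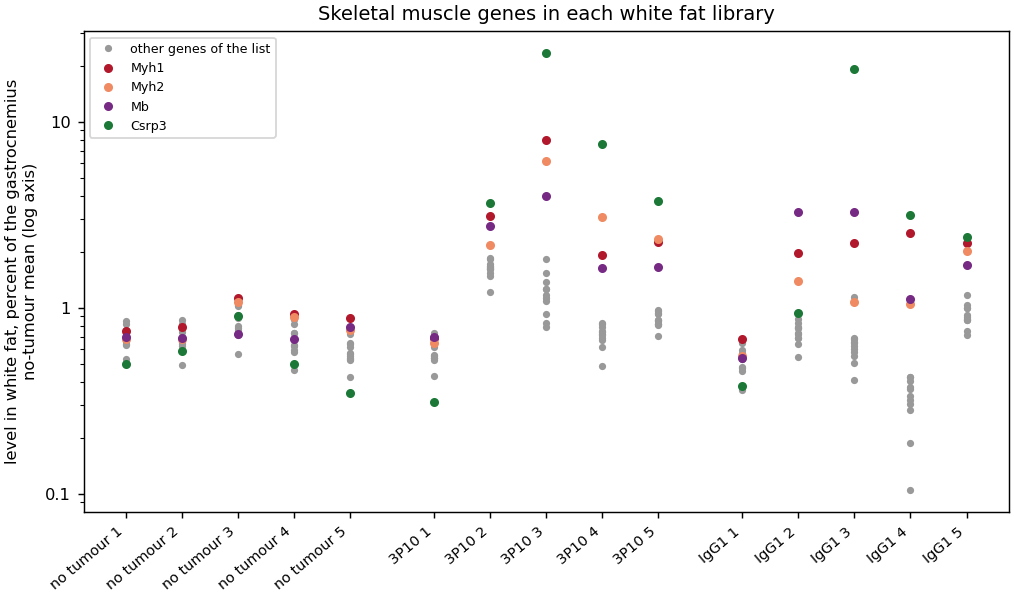
Level of the 14 skeletal muscle genes and of Csrp3 in each white fat library (x axis), as a percent of the gene's mean in 5 no-tumour gastrocnemius libraries (y axis, log scale), 1 point per gene. The no-tumour libraries and 3P10 replicate 1 form a narrow band up to 1.13%, and Myh1, Myh2, Mb and Csrp3 (coloured) stand above the grey points in 3P10 replicates 2, 3, 4 and 5. Myh1 and Mb also stand above the grey points in IgG1 replicates 2, 3, 4 and 5.

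The libraries with the most muscle transcripts, 3P10 replicates 2 and 3 (4480 and 3460 CPM over the list, against 1690 to 2510 in NTB), were also those with the most macrophage and MHC class II transcripts. With the mean muscle level of each library as a term in the fit, 3 of 11 MHC class II genes in place of 8 were at an unadjusted p under 0.05, with a median of 0.31, and the macrophage median was -0.12. Dendritic cell genes at that p then numbered 2 in place of 4, with a median of 0.36, and higher acute phase and STAT3 genes 1 in place of 7, with a median of 0.06. The neutrophil count was 3 in both fits, with a median of 1.34 in place of 0.96. The skeletal muscle count itself was 1, a fall that was fixed in advance, since the term is the mean of these same genes. The cell cycle list then had 9 genes lower with a median of -0.89 and the collagen list 8 with a median of -0.60. The muscle list was itself higher in 3P10, so this fit cannot separate the muscle level from the group. The part of muscle tissue in these results was not tested.

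Markers of other cells of fat varied widely between libraries of 1 group. Mesothelial markers, which mark the lining of visceral fat, summed to 78.1 to 273 CPM in 3P10 and to 15.4 to 433 CPM in NTB, where replicate 5 was lowest. All 9 were lower in 3P10 by their log2 fold change (7223 of 14081 over all genes tested), 0 at an unadjusted p under 0.05, and 0 were bounded. Myh11, smooth muscle myosin, ranged from 66.4 to 1110 CPM in NTB and from 58.2 to 489 CPM in 3P10, so that its interval ran from -3.02 to 0.40. Endothelial markers were 11 of 12 bounded, with a median of -0.06.

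Of the transcripts of the targeted pathway in white fat, Gfral had 1 read in the 10 libraries. Gdf15 was at 0.391, 0.728, 0.395, 0.301 and 0.452 CPM in NTB and 0.589, 0.4, 0.582, 0.268 and 0.413 CPM in 3P10, a log2 difference of 0.01 with an interval of -0.79 to 0.81. Ret was at 53.5, 53.5, 46.7, 21.3 and 44.9 CPM in NTB and 29.2, 40.1, 49, 13.3 and 15.2 CPM in 3P10. Replicates 1, 2 and 3 lay within the NTB range and replicates 4 and 5 below it, with a log2 difference of -0.58 (SE 0.35, interval -1.35 to 0.19). In IgG1 Ret was at 24.4, 3.79, 39, 3.06 and 7.31 CPM. The antibody blocks the receptor protein and has no transcript as its target, so these levels do not check the labels.

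The remaining genes with the smallest p were of mixed function. On the higher side stood Sema4d, a semaphorin, at 2.59, 1.9, 2.34, 2.93 and 2.26 CPM in NTB and 5.96, 5.64, 5.43, 9.45 and 4.65 CPM in 3P10 (1.37, SE 0.22, edgeR adjusted p = 0.258, DESeq2 adjusted p = 2.95e-05). Napsa, an aspartic protease (2.04), Rasa4, a Ras GTPase-activating protein (0.96), and Fam134b, a receptor for autophagy of the endoplasmic reticulum (0.89), followed. None of the 4 overlapped between groups, which held for 0.490% of all genes tested on the higher side. They were picked by their small p, so the lack of overlap is a description. In IgG1 Sema4d, Napsa, Rasa4 and Fam134b differed from NTB by 0.42, 1.53, 0.54 and 1.8. Without IgG1 replicates 2 and 4 these values were 0.31, 1.11, 0.84 and 1.33. On the lower side were Apln, which encodes the adipokine apelin, at 6.04, 7.8, 4.51, 4.74 and 5.84 CPM in NTB and 2.49, 3.32, 4.03, 1.4 and 2.31 CPM in 3P10 (-1.09, SE 0.27, edgeR adjusted p = 0.557, DESeq2 adjusted p = 0.0393), the ion channel gene Trpv1 (-0.82), Sox9, a transcription factor of progenitor cells (-0.96), Cep55, a protein of the last step of cell division (-1.18), and Arap2 (-0.46). These too were picked by their small p and did not overlap, which held for 0.341% of all genes tested on the lower side. In IgG1 Apln, Trpv1, Sox9, Cep55 and Arap2 differed from NTB by -1.28, -1.18, -1.32, -1.47 and -0.44. Without IgG1 replicates 2 and 4 these values were -1.22, -0.88, -1.65, -1.28 and -0.2. Both comparisons share the NTB libraries, so the shared signs are a description. Rbp4, retinol-binding protein, a second adipokine on this side, was bounded within 2-fold at -0.5 (interval -0.83 to -0.17, edgeR adjusted p = 0.731).

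The largest log2 fold change of the comparison belonged to Gdpd3, a gene of the glycerophosphodiester phosphodiesterase family, and was carried by part of the group. The gene was named after its values were seen. It was at 71.9, 3.32, 96.8, 65.8 and 1.96 CPM in 3P10 and at 3.23, 1.82, 2.17, 1.46 and 2.44 CPM in NTB. In 3P10, replicates 1, 3 and 4 lay far above NTB and replicates 2 and 5 at its level, and IgG1 also fell into 2 sets, at 70.5, 61.6, 93.3, 1.9 and 1.29 CPM. The log2 difference was 4.42 (SE 0.85, interval 2.56 to 6.28, edgeR adjusted p = 0.427, DESeq2 adjusted p = 0.00145).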

How the data were processed

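Per the labels' protocols, RNA of flash-frozen tissue was prepared with DNase treatment, and white fat libraries were made with a directional kit and sequenced as single-end reads. The authors deposited raw counts, integers for each gene symbol and library. Per the submitters' processing notes, the authors used Trim Galore, STAR 2.6.0a, featureCounts 1.6.2, edgeR 3.22.3 and mm9. The annotation and strand setting are not given in the sources used here, so overlapping genes cannot be told apart and no coordinates of the files are printed. Promoter sequences are RefSeq's (GRCm38.p6).

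Samples were grouped by title. The main test was edgeR 4.0.16 (R 4.3.3, limma 3.58.1): a 2-sided quasi-likelihood fit of the 10 libraries, TMM factors over 15, filterByExpr (minimum count 10, minimum total 15), Benjamini-Hochberg adjustment over 14081 of 24391 genes, 8 residual degrees of freedom. Intervals used the fit's standard errors and a t distribution with 12 degrees of freedom. CPM was per M of kept counts times the TMM factor; shares of gastrocnemius levels used CPM of library totals. IgG1 levels came from a fit of 15 libraries.

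The members, lists and tests were chosen with earlier results of these data known. Named genes were the 6 with the smallest p in each direction (mean at least 1 CPM), the smallest p of each list, the panel of 25, Gdf15, Gfral, Ret and Adipoq, Lep, Ucp1, Pparg, Fasn, Pnpla2, Lipe and Adrb3. Named after their values were seen were H2-Aa, H2-Ab1, Cd74, Ciita, Clec9a, Cd209a, Xcr1, Itgal, S100a9, Csf3r, Zbtb46, Itgae, Irf7, Ifi44, Cxcl10, Cd3d, Cd3e, Cd3g, Cd8a, Gzma, Ms4a1, Pax5, Jchain, Mcm2, Mcm3, Pcna, Col4a1, Col4a2, Mki67, Top2a, Ccnb1, Col1a1, Col3a1, Col6a3, Myh1, Myh2, Myh4, Csrp3, Gdpd3, Ptprc and Csf2rb. Alternatives were DESeq2 1.42.0, RLE factors, 2 other filters, the fit of 3 groups, blocks by replicate and library number, and each library left out. After the data were seen, a muscle term and IgG1 without replicates 2 and 4 were added.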

Additional observations from a re-analysis of the deposited data

Results flagged for a closer look

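A library was looked at again when it lay far from the other 4 of its group, by the gap to the nearest of them over the group's range. Of 266 sets of 5 libraries tested over the named genes and summed lists, 27 had such a library, and chance gives about 1 in 20. The value is given beside that of the nearest library of the group, and the library is the highest of its group unless it is said to be the lowest. In 3P10 replicate 2 this held for Fam134b at 26.4 CPM against 17.5 CPM, Ccnb2 at 0.2 CPM against 0.658 CPM (lowest), Tfeb at 20.2 CPM against 14.2 CPM and Myh4 at 1210 CPM against 631 CPM. In 3P10 replicate 3 this held for Prc1 at 2.52 CPM against 1.28 CPM, Acot2 at 30.1 CPM against 43.2 CPM (lowest) and the summed cell cycle at 321 CPM against 176 CPM. In 3P10 replicate 4 this held for Sema4d at 9.45 CPM against 5.96 CPM and the summed testis and epididymis at 0.483 CPM against 0.0689 CPM. In 3P10 replicate 5 this held for Coro1a at 29.2 CPM against 41 CPM (lowest). In NTB replicate 1 this held for Gm6484 at 71.3 CPM against 31.8 CPM, Rpl8 at 514 CPM against 387 CPM and Tfeb at 15.8 CPM against 12.6 CPM. In NTB replicate 2 this held for Trpv1 at 11.1 CPM against 8.05 CPM and Ccnb1 at 2.3 CPM against 1.18 CPM. In NTB replicate 3 this held for the summed collagen chains at 6240 CPM against 7600 CPM (lowest). In NTB replicate 4 this held for Adrb3 at 1400 CPM against 995 CPM, Trp63 at 11.4 CPM against 3.11 CPM, Zfp36 at 60.4 CPM against 52.8 CPM, Ret at 21.3 CPM against 44.9 CPM (lowest), Acot2 at 26.2 CPM against 37 CPM (lowest), Adipoq at 3910 CPM against 2830 CPM and Csf2rb at 11.5 CPM against 20.5 CPM (lowest). In NTB replicate 5 this held for Mt2 at 74.5 CPM against 33.1 CPM, Col1a2 at 429 CPM against 696 CPM (lowest), Mt1 at 146 CPM against 105 CPM and the summed keratinocyte and mammary epithelial at 3.17 CPM against 17.3 CPM (lowest).

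Without 3P10 replicate 2 the muscle count of 9 genes was 4, as it was without 3P10 replicate 3.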

How the results depend on the processing

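Called genes numbered 0 in edgeR under every alternative, namely RLE factors, no low-count filter, at least 1 CPM in 5 libraries, 3 groups in 1 fit, both blocks, the muscle term and each library left out (range 0 to 0), and 47 with DESeq2. The cause of the difference between tools was not tested. Bounded genes ranged from 11038 to 11511 with a library left out and from 10536 to 11610 under the other alternatives, against 11407. The number of genes at an unadjusted p under 0.05, 666, ran from 440 without NTB replicate 2 to 899 of 18774 genes with no low-count filter, and was 859 with the muscle term. With the replicate block 0 genes were called and 11583 were bounded, and with the library number block 0 and 11610. Same-numbered libraries deviated together in 2 of 5 pairs (correlations -0.13 to 0.43), so the numbers were not taken as pairs. Without IgG1 replicates 2 and 4, genes called in IgG1 against NTB were 93 in place of 1245.

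Of 109 named genes under 18 alternatives, 1873 of 1956 values moved by less than the spread between libraries, 17 passed the threshold, all with DESeq2, and 3 sign changes concerned a log2 difference over 0.5. Of the 882 list medians, 11 moved by more than the spread, all with the muscle term. Depth limits the bounds most under 1 CPM, where 10.9% of genes were bounded, but genes at higher levels with a wide spread between libraries, such as Ucp1 and Myh11, were not bounded either.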
